A study of Mus musculus with 2 samples.

Results

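Sox9 and 9 genes of the cartilage matrix, 10 genes in all of the 32285 listed, were followed through single cells of the mouse mitral valve. The genes were taken by symbol: the transcription factor gene Sox9, the fibrillar collagen genes Col2a1 and Col11a1, the type IX collagen genes Col9a1, Col9a2 and Col9a3, the proteoglycan gene Acan, the matrilin gene Matn4, and Cnmd and Snorc, 2 genes of cartilage cells. All 10 were found once in both gene lists. In the kept cells 9 of the 10 had at least 1 UMI (a unique molecular identifier, which marks 1 captured RNA molecule) in the mutant library and all 10 had one in the control library.

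SOX9 binds enhancers of cartilage genes, with SOX5 and SOX6 as partners, and turns on type II, type IX and type XI collagen and aggrecan when mesenchyme becomes cartilage. Type II collagen forms the main fibril, type XI collagen sits inside it and type IX collagen decorates its surface. Heart valves use part of the same programme: valve precursor cells of the endocardial cushions express Sox9, and maturing leaflets lay down collagen and proteoglycan layers.

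The libraries came from mitral leaflets dissected at E17.5, late in mouse gestation. The mutant library was made from embryos labelled Nfatc1-Cre, Dicer loxp/loxp and the control library from embryos labelled wild type. The control label names neither Cre nor loxP sites, and whether the control carried either is not given. Nfatc1 is a gene of the endocardium, whose descendants include many cells of the valve, and DICER1 cuts precursors into mature microRNAs. Each library pooled 3-4 hearts, and cells were freed with 0.05% trypsin and sorted with a dead-cell dye, so there is 1 library per genotype, no test between genotypes and no p-value, and genotype, pool and library preparation cannot be told apart.

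After filtering, 6202 mutant and 10356 control cells remained, with a median of 9499 and 5675.5 UMIs. The files held 69475632 UMIs in the mutant and 70221728 in the control library. Cell barcodes shared by both libraries numbered 19, of which 11 were among the kept cells. The pools differed in sex: by Xist against 4 Y-linked genes, 37.1% of mutant cells were of male type, 42.5% of female type and the rest open, whereas 93.5% of control cells were of female type. Dicer1, the targeted gene, was read in CPM (UMIs per 1000000 UMIs, summed over the cells of a set). In endothelial clusters 6, 13 and 15 together it stood at 40.4 CPM in the mutant and 90.0 CPM in the control library. Of these 3, only cluster 15 was named valve endothelial from its markers, and clusters 6 and 13 were named endothelial. In all stromal cells Dicer1 stood at 52.9 and 66.8 CPM. The deleted part of the gene is not named in the labels, so these 3′ tags check the labels only in part.

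Cells were clustered without the 10 genes and without 35 further genes of the SOX9 pathway, so their own counts drew no cluster border. Of 25 clusters, 7 were stromal by Col1a1, Col3a1, Pdgfra, Dcn and other fixed markers, with 2535 mutant and 5241 control cells. Clusters 0 and 8 were both called Prss35-type after Prss35, Abi3bp, Rspo3 and Kazald1. Cluster 0 (433 mutant and 1798 control cells) was led among stromal clusters by Dbi, Car3 and Clu, and cluster 8 (209 and 579 cells) by Gal, Clu and Matn4. The 8 valve interstitial markers, among them Postn, Twist1 and Vcan, summed to 8563 CPM in mutant and 9007 CPM in control Prss35-type cells, against 169.6 and 123 CPM in macrophages. The others were a cycling cluster 2, a Ccn3-type cluster 4 that was also high in Acta2 and Tagln, a Dlk1-type cluster 5, a Dpep1-type cluster 7 that also had Sfrp2, Angptl7 and Ogn, and the shallow cluster 14, led by Meg3 and Rian.

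By the GENCODE M21 annotation of GRCm38 (mm10), Sox9 (ENSMUSG00000000567) lies on chromosome 11 at 112782224 to 112787760, plus strand, and Col2a1 (ENSMUSG00000022483) on chromosome 15 at 97975602 to 98004695, minus strand. Col9a1 (ENSMUSG00000026147) lies on chromosome 1 at 24177610 to 24252684, plus strand, Col9a2 (ENSMUSG00000028626) on chromosome 4 at 121039385 to 121055322, plus strand, and Col9a3 (ENSMUSG00000027570) on chromosome 2 at 180597790 to 180622189, plus strand. Col11a1 (ENSMUSG00000027966) lies on chromosome 3 at 114030540 to 114220718, plus strand, and Matn4 (ENSMUSG00000016995) on chromosome 2 at 164389393 to 164405160, minus strand. Col9a3 overlaps Tcfl5 and Matn4 overlaps Rbpjl, each on the opposite strand. Whether counting used strand is not given in the sources used here, so reads of such partners may be mixed.

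RefSeq start regions on GRCm38.p6, of 250 bases before and 50 after the start of transcription, were at hand for 6 of the 10 genes. Those of Col9a1 (chr1:24177360-24177659, plus strand) and Matn4 (chr2:164405111-164405410, minus strand) are shown because these 2 genes part ways between the libraries in Prss35-type cells, as the values further on show. Capitals mark the 50 bases from the start of transcription.
Col9a1: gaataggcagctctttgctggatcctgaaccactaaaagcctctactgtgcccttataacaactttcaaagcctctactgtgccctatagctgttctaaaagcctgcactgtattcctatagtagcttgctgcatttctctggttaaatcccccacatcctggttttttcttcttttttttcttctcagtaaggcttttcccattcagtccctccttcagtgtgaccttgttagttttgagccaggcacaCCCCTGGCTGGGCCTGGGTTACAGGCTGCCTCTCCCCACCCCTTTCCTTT
Matn4: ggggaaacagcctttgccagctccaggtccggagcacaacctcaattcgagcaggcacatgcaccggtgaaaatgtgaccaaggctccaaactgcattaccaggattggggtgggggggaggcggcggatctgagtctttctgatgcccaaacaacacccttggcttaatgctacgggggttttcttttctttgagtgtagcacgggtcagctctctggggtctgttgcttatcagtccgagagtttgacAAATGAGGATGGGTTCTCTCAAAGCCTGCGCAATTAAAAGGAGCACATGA
The letters ACAAAG and ACAATG, 2 forms of the core bound by SOX proteins, were searched for on either strand. A match was found in 0 of the 8 start regions of the 6 genes (2 each for Col9a1 and Matn4). Of all 32851 start regions of this length, 28.6% had a match. No match says only that these letters are not in these windows, and other forms of the core were not searched for.

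Sox9 was spread over the whole stroma. It was highest in cluster 8, at 803 CPM in the mutant and 1028 CPM in the control library, followed by cluster 0 at 560.1 and 661 CPM. In the other clusters except the shallow cluster 14 it stood between 372 and 453 CPM in the mutant and between 379 and 574 CPM in the control library. Below these, the order differed between the libraries: cluster 7 stood at 397 CPM in the mutant library, below clusters 2 and 4 and with a counting interval that overlapped that of cluster 5, and at 574 CPM in the control library, above clusters 2, 4 and 5. The make-up of cluster 7 differed too: at a finer resolution of the clustering its cells fell mostly into an Sfrp2-type cluster (140 mutant and 499 control cells of cluster 7) and a Dpep1-type cluster (172 and 170 cells). Over its whole extent the Sfrp2-type cluster (149 and 507 cells) had 545 CPM of Sox9 in the mutant and 683 CPM in the control library, and the Dpep1-type cluster had 269 and 256 CPM. Clusters 2 and 4 had overlapping intervals in both libraries. Outside the stroma, mural cells, the contractile cells of vessel walls, had 99.96 CPM of Sox9 in the mutant and 139 CPM in the control library. Macrophages, which should lack it, had 7.71 and 4.63 CPM, a level that free RNA in the droplets can give.

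Type II and type IX collagen and Matn4 were far more restricted than Sox9. Col2a1, the fibril collagen of cartilage, stood at 82.2 CPM in mutant and 217 CPM in control cells of cluster 8, and at 37.2 and 46.1 CPM in cluster 0. In the Ccn3-type cluster 4 it had 0 and 3 UMIs, and in the Dlk1-type cluster 5 it had 7 and 1 UMIs, although both clusters held Sox9. In cluster 4, 0 UMIs in the mutant library allow up to 0.539 CPM. In the shallow cluster 14 Col2a1 stood at 66.1 and 40.1 CPM, from 15 mutant and 5 control UMIs.

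Col9a1 and Col9a3, which encode 2 of the 3 chains of type IX collagen, followed the same steps. Col9a1 stood at 381 CPM in the mutant and 321 CPM in the control library in cluster 8, and at 192 and 214 CPM in cluster 0. Col9a3 stood at 239 and 449 CPM in cluster 8 and at 136 and 192 CPM in cluster 0. Both were between 53.3 and 74.7 CPM in the cycling cluster 2 of either library and at most 3.22 CPM in clusters 4 and 5, where macrophages of the same libraries had 0.67 to 3.71 CPM. At the finer resolution there were 2 cycling stromal clusters, of which 1 had 137 CPM of Col9a1 in the mutant and 134 CPM in the control library and the other had 1.49 and 8.50 CPM. In the shallow cluster 14 Col9a1 stood at 48.5 CPM in mutant and 96.2 CPM in control cells, and Col9a3 at 57.3 and 112 CPM.

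Col9a2, the gene of the remaining chain, reached beyond its partners. In the Dpep1-type cluster 7 it stood at 100.5 CPM in mutant and 94.8 CPM in control cells, where Col9a3 stood at 1.98 and 11.9 CPM and Col9a1 at 7.27 and 22.6 CPM. In clusters 4 and 5 Col9a2 stood between 21.2 and 29.6 CPM, against 0.34 and 2.32 CPM in macrophages. In cluster 7 the RNA of 1 of the 3 chains was thus present at a level that its partners lacked.

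Col11a1, of type XI collagen, was the most even of the matrix genes. It stood between 41.1 and 114 CPM in the mutant and between 38.3 and 149.6 CPM in the control library over the 6 deeper stromal clusters. Its order differed between the libraries: cluster 8 stood at 59.2 CPM in the mutant library, above cluster 5 and with an interval that overlapped that of cluster 2, and at 149.6 CPM in the control library, above the other 5.

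Matn4, an adaptor protein of the extracellular matrix, was among the deeper stromal clusters likewise highest in the Prss35-type ones. It stood at 308 CPM in mutant and 749 CPM in control cells of cluster 8, and at 133 and 240.3 CPM in cluster 0. In clusters 4, 5 and 7 it stood between 8.91 and 23.5 CPM, above the 2.01 and 3.24 CPM of macrophages. In the shallow cluster 14 it stood at 154 CPM in mutant cells (35 UMIs) and 176 CPM in control cells (22 UMIs). It was also high in the melanocyte cluster (22 mutant and 59 control cells, marked by Dct and Pmel), at 237 CPM in mutant and 421 CPM in control cells. Col9a3 stood there at 124 and 222 CPM, while Col9a1 had 5 and 1 UMIs and Sox9 5 and 16 UMIs. The 4 melanocyte markers summed to 3.02 CPM in mutant and 1.15 CPM in control cells of cluster 8.

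**Figure D1:**
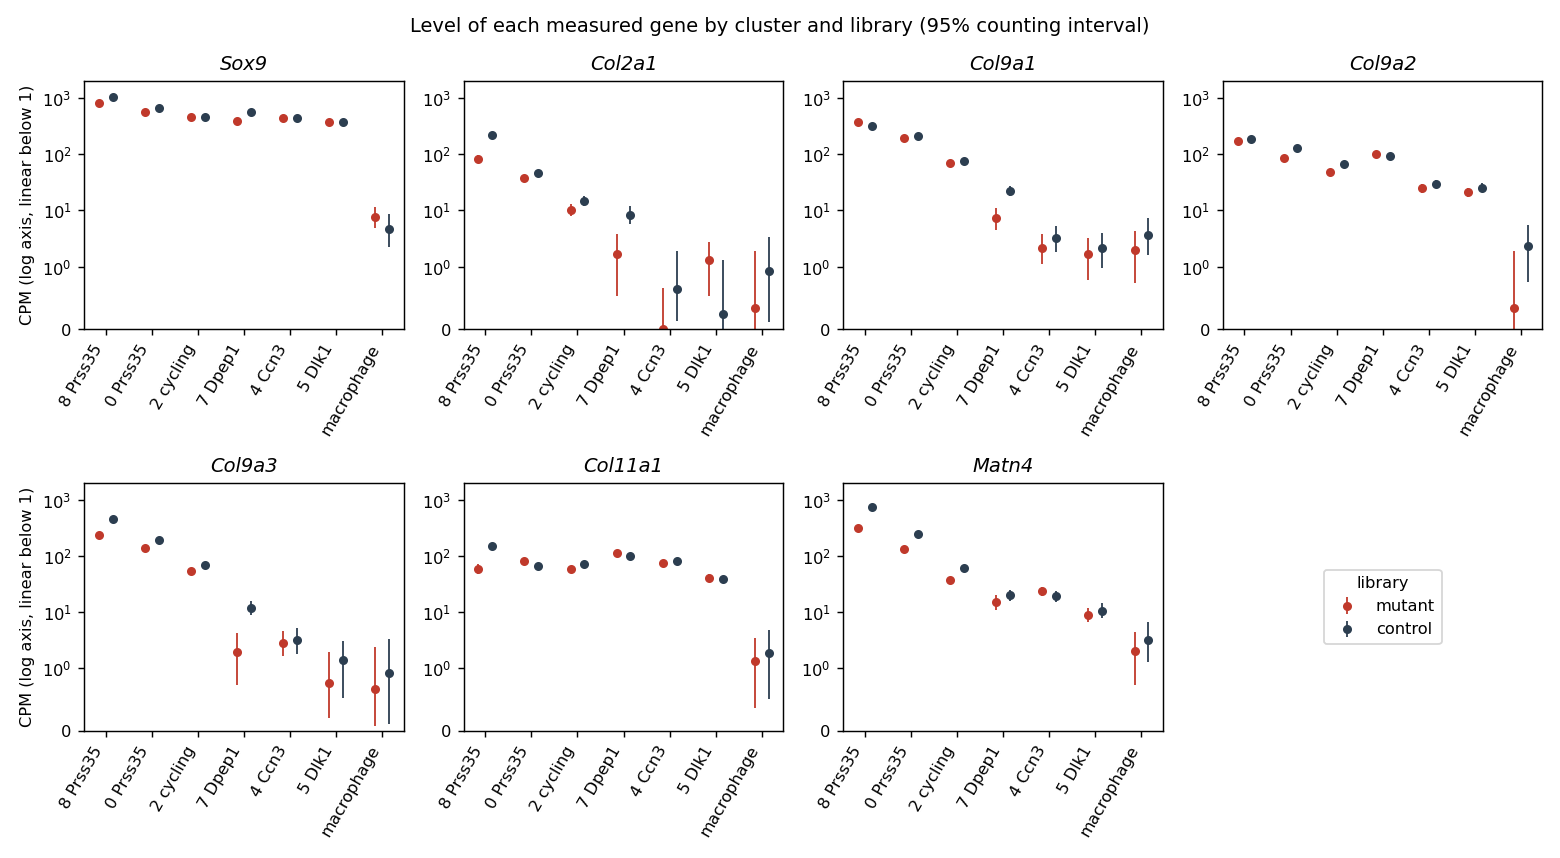
Level of the 7 measured genes in CPM (log axis, linear below 1) in 6 stromal clusters and in macrophages, with the mutant library left of the control library and 95% counting intervals. Sox9 lies between 372 and 1028 CPM in every stromal cluster shown, whereas Col2a1, Col9a1 and Col9a3 drop to the macrophage level in clusters 4 and 5.

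The other 3 genes were near the limit of detection in the stroma. Acan, which encodes aggrecan, the main proteoglycan of cartilage, had 20 UMIs in the mutant and 39 UMIs in the control stroma, or 0.73 and 1.18 CPM. Its level in mural cells was higher, at 10.3 and 6.78 CPM. Cnmd, which encodes the anti-angiogenic protein chondromodulin, had 31 and 87 stromal UMIs and was highest in cluster 7, at 4.96 CPM in mutant and 10.4 CPM in control cells. Snorc, a small transmembrane proteoglycan gene of cartilage, had 0 stromal UMIs in the mutant library, which allows up to 0.109 CPM, and 2 in the control library.

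Markers of mature cartilage were checked against the word cartilage in the name of the gene set. Matn1 and Col10a1 had 0 stromal UMIs in both libraries. Matn3 had 2 UMIs in the mutant and 0 in the control stroma, Comp 1 and 4, Ihh 1 and 3, and Epyc 19 and 22. Ucma, a secreted protein of cartilage cells, was the exception with 81 and 279 UMIs, or 2.95 and 8.46 CPM. It was highest in cluster 0 of the mutant library, at 11.3 CPM, and in cluster 8 of the control library, at 27.7 CPM. In Prss35-type cells it stood at 10.2 CPM in the mutant and 18.7 CPM in the control library. The cells are therefore called stromal here and not cartilage cells.

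Over the 24 control clusters with enough cells, the genes whose level was most like Sox9 were Dpt, Prrx1, Mfap4, Robo2 and Aspn, with a Pearson correlation of log2(CPM + 1) between 0.93 and 0.95. Dpt and Aspn encode small matrix proteins and Prrx1 a homeobox factor of mesenchyme. Correlation of Sox9 with the matrix genes was 0.85 for Col11a1 and 0.84 for Col9a2, and between 0.67 and 0.69 for Col2a1, Col9a1, Col9a3 and Matn4. Col2a1 was most like Aldh1a7, Chrdl1, Erbb4, Btn1a1 and Dlg2 (0.88 to 0.90) and had 0.92 with Col9a1. Matn4 was most like Slc13a4, Dlgap1, Rbpjl, Aldh1a7 and Paqr6 (0.87 to 0.90), of which Rbpjl overlaps Matn4 on the opposite strand. The clusters share 1 library and its free RNA, so these values are descriptions.

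Between the libraries, 5 of the 7 measured genes (mean of at least 10 CPM) were at least 1.5-fold lower in the mutant stroma as a whole, and 0 were at least 1.5-fold higher. Among all 8579 genes measured in these cells, 1.32% were lower and 1.29% higher by that fold. Matn4 had the lowest ratio, at 59.4 CPM in mutant and 156 CPM in control stroma, a log2 ratio of mutant over control of -1.39 (95% interval -1.47 to -1.31). Col2a1 stood at 14.6 against 36.1 CPM (-1.30, interval -1.47 to -1.14), Col9a3 at 52.0 against 113.6 CPM (-1.13), Col9a2 at 58.0 against 89.6 CPM (-0.63) and Col9a1 at 74.5 against 113 CPM (-0.60). Col9a2 and Col9a1 lie just past 1.5-fold.

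Sox9 differed less, at 465 CPM in the mutant and 568 CPM in the control stroma, a log2 ratio of -0.29 (-0.32 to -0.26). Col11a1 stood at 69.5 and 77.0 CPM, a ratio of -0.15 (-0.23 to -0.06). The median over the 7 genes was -0.63, beside 0.01 over all genes measured. The intervals are exact and conditional on the counts, and like all intervals here they hold counting error alone, with no part for differences between embryos.

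The mix of stromal cells moved with these ratios. The 2 Prss35-type clusters held 25.3% (23.6 to 27.1) of the mutant and 45.4% (44.0 to 46.7) of the control stromal cells, and they hold most Col2a1, Col9a1, Col9a3 and Matn4. When each cluster was given the same weight in the mutant as in the control library, 3 of the 7 genes stayed at least 1.5-fold lower: Matn4 at -0.91, Col2a1 at -0.79 and Col9a3 at -0.61. Col9a1 then had -0.07, Col9a2 -0.35, Sox9 -0.18 and Col11a1 -0.09. Whether fewer Prss35-type cells were present in the leaflets, or were freed by the enzyme, was not tested.

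Within Prss35-type cells (642 mutant and 2377 control cells) 2 of the 7 genes were at least 1.5-fold lower, Matn4 and Col2a1, and 0 were higher. Of all 8540 genes measured there, 1.56% were lower and 2.97% higher. Matn4 had 180.4 CPM in mutant and 341 CPM in control cells, and its log2 ratio was -0.92 (-1.02 to -0.82). Col2a1 stood at 49.4 against 79.9 CPM (-0.69, interval -0.88 to -0.51). Col9a3 had a ratio of -0.57 and Col9a2 of -0.37, short of 1.5-fold. At the finer resolution the Prss35-type cells fell into 3 clusters, and the lower values were not in all of them. In the first (191 mutant and 907 control cells) neither gene was lower by that fold, with Matn4 at 94.8 and 112 CPM (-0.24, interval -0.48 to -0.01) and Col2a1 at 17.9 and 14.9 CPM (0.28, interval -0.32 to 0.83). In the second (301 and 795 cells) Matn4 stood at 258 and 516 CPM and Col2a1 had a ratio of -0.55, and in the third (139 and 664 cells) the ratios were -1.60 for Matn4 and -1.04 for Col2a1.

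Col9a1 did not go with its partner chain. It stood at 243 CPM in mutant and 235 CPM in control Prss35-type cells, a ratio of 0.05 (-0.04 to 0.14), beside -0.57 (-0.67 to -0.46) for Col9a3. The sex types of the mutant library lay on either side of that value: against female-type control cells (235 CPM) male-type mutant cells (189 CPM) had -0.31 (-0.49 to -0.14) and female-type mutant cells (275 CPM) had 0.22 (0.12 to 0.32). In the 3 finer clusters Col9a1 had 0.17, 0.10 and -1.11, the last with an interval of -1.39 to -0.85. Sox9 stood at 626 against 733 CPM there, a ratio of -0.23 (-0.28 to -0.17), and Col11a1 at 76.4 against 82.8 CPM, a ratio of -0.12 (-0.28 to 0.04).

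The 2 Prss35-type clusters differed in which genes were lower. In cluster 8, 4 of the 7 genes were at least 1.5-fold lower, where 6.53% of all 8701 genes measured were lower and 8.48% higher. They were Col2a1 at -1.39 (-1.68 to -1.12), Col11a1 at -1.33 (-1.67 to -1.01), Matn4 at -1.28 (-1.42 to -1.14) and Col9a3 at -0.91 (-1.08 to -0.75). Sox9 had -0.36, Col9a2 -0.13 and Col9a1 0.25. In cluster 0, 2 of the 7 were lower, where 1.92% of 8421 genes were lower and 2.54% higher: Matn4 at -0.86 (-0.99 to -0.73) and Col9a2 at -0.59. Col11a1 had a ratio above 0 there, at 0.32 (0.13 to 0.50), Col2a1 -0.31 and Col9a3 -0.49.

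The make-up of cluster 8 and other RNAs moved with its ratios. Of its cells, 153 mutant and 133 control cells lay in the second of the finer Prss35-type clusters and 56 mutant and 446 control cells in the third. In none of the 3 finer clusters was Col11a1 1.5-fold apart: it stood at 32.5 CPM in mutant and 29.2 CPM in control cells of the first, at 53.6 and 78.5 CPM in the second and at 195 and 183 CPM in the third. In the second its log2 ratio was -0.55 (-0.85 to -0.26). Whether the opposite signs of Col11a1 in clusters 0 and 8 come from where the cluster border falls was not tested. The summed level of the 4 Prss35-type markers was 1271 CPM in mutant and 1719 CPM in control cells of cluster 8, and 883 and 1029 CPM in cluster 0. The 4 erythroid markers summed to 10.9 CPM, with 1 at 0, in mutant cells of cluster 8 and to 1576 CPM in control cells. Over both Prss35-type clusters they summed to 73.6 and 357 CPM. The 6 endothelial markers summed to 136 CPM in mutant and 62.3 CPM in control cells of cluster 8. Their part in the result was not tested.

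**Figure D2:**
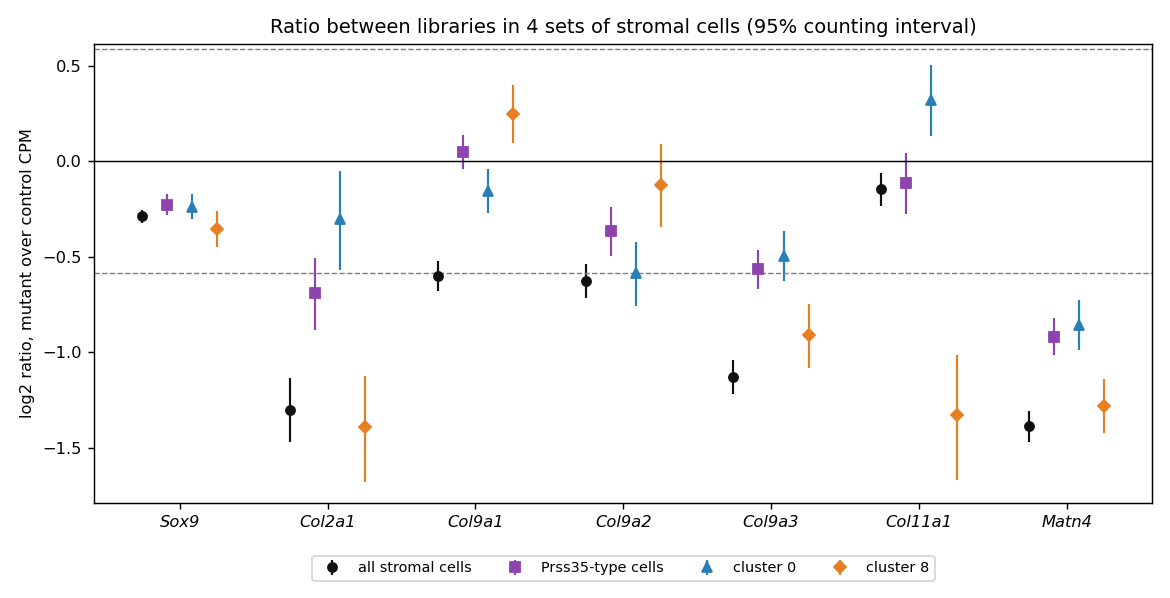
Log2 ratio of mutant over control CPM for the 7 measured genes in all stromal cells, Prss35-type cells and clusters 0 and 8, with 95% counting intervals and dashed lines at 1.5-fold. Matn4 is below the lower line in all 4 sets, while Col9a1 is below it only in all stromal cells, and Col11a1 lies on opposite sides of 0 in clusters 0 and 8.

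Cells of male and female type within the mutant library come from different embryos of 1 genotype, and so show how far these genes vary without a change of library. They differ in sex as well as in embryo, and the number of embryos of each sex is not given. Variation between embryos therefore cannot be told apart from sex here. Over all stromal cells, male-type mutant cells (911) were at least 1.5-fold below female-type mutant cells (1203) for 5 of the 7 genes, and 0 were above by that fold. Of all 8548 genes measured in this comparison, sex-linked genes included, 1.98% were lower and 0.772% higher in male-type cells. Col9a1 had 44.0 against 107 CPM, and its log2 ratio of male over female type was -1.28, and Matn4, Col2a1, Col9a2 and Col9a3 had ratios between -1.04 and -0.71. The mix moved here too, with Prss35-type cells making up 17.2% (14.8 to 19.8) of male-type and 33.7% (31.0 to 36.4) of female-type mutant stroma, against 45.2% of female-type control stroma.

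Within Prss35-type cells 0 of the 7 genes were 1.5-fold apart between male-type (157) and female-type (405) mutant cells, where 2.77% of all 8561 genes measured were lower and 2.76% higher in male-type cells. A count of 0 among 7 genes is near that background. Matn4 stood at 177 CPM in male-type and 195 CPM in female-type mutant cells, against 341 CPM in female-type control cells (2238). Both mutant values lay at least 1.5-fold below the control value, with ratios of -0.94 (-1.13 to -0.77) and -0.81 (-0.92 to -0.70). Matn4 was the only gene of the 7 for which that held in Prss35-type cells and in cluster 0 taken separately. In cluster 8 it held for 3 of the 7, Matn4, Col9a3 and Col11a1. There Col9a3 had ratios of -0.66 for male-type and -0.90 for female-type mutant cells, and Col11a1 had -0.71 and -1.68. The share of all genes for which that held is not given here. In Prss35-type cells Col9a3 stood at 161 and 175 CPM against 244 CPM, with ratios of -0.60 and -0.48.

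In each Prss35-type cluster Col2a1 lay further apart between the sex types of the mutant library than between the libraries. In cluster 8 it stood at 171 CPM in male-type (56 cells) and 47.9 CPM in female-type mutant cells (131), against 216 CPM in female-type control cells (566). In cluster 0 the order turned, with 11.7 CPM in male-type and 47.8 CPM in female-type mutant cells, against 46.3 CPM in female-type control cells. Against female-type control cells, its ratio in cluster 8 was -0.33 (-0.72 to 0.02) for male-type and -2.16 (-2.61 to -1.76) for female-type mutant cells. Col11a1 also differed between male-type and female-type mutant cells in opposite directions, at 91.5 and 47.0 CPM in cluster 8 and 49.5 and 91.6 CPM in cluster 0.

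**Figure D3:**
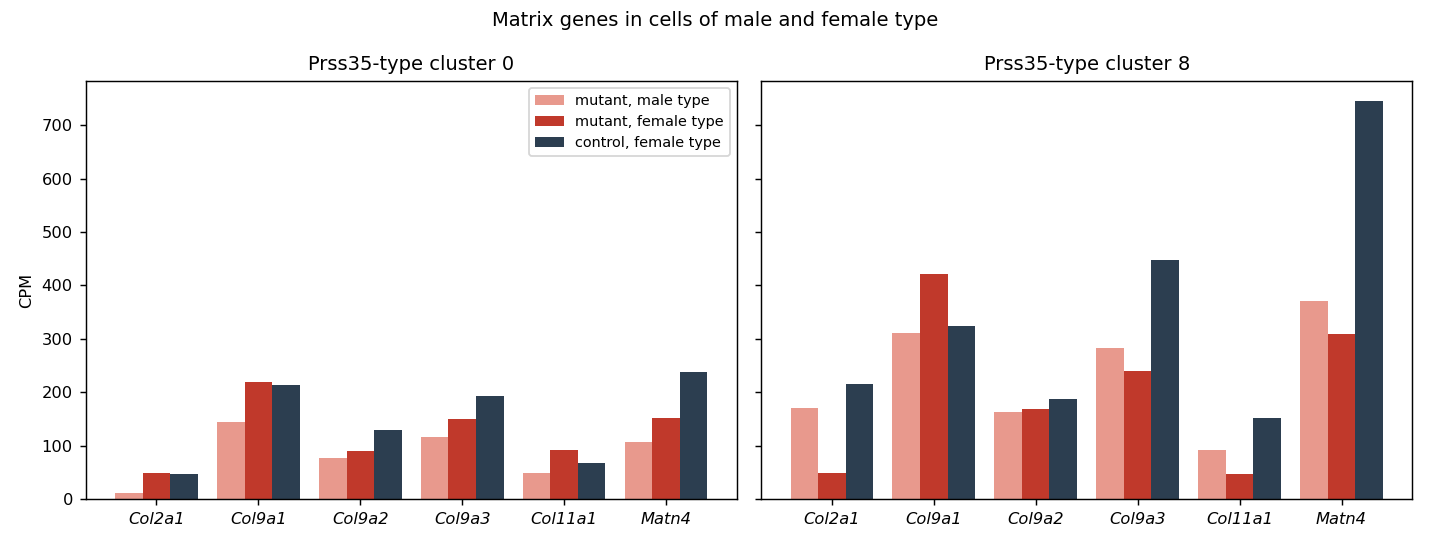
CPM of the 6 measured matrix genes in male-type mutant, female-type mutant and female-type control cells of the Prss35-type clusters 0 and 8. Both Matn4 bars of the mutant library lie below the control bar in both clusters (309 to 371 against 746 CPM in cluster 8), whereas the 2 mutant bars of Col2a1 lie far apart.

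In the stroma outside the Prss35-type clusters (1893 mutant and 2864 control cells) 0 of 6 measured genes were at least 1.5-fold lower or higher, where 0.402% of 8466 genes were lower and 0.52% higher. Their ratios ran from -0.49 for Col9a3 to -0.11 for Col11a1, and Sox9 had -0.13. In the Dpep1-type cluster 7 Sox9 had -0.53 (-0.63 to -0.43) and Col9a1 -1.61 (-2.38 to -0.95), from 22 mutant and 91 control UMIs of Col9a1. The make-up of cluster 7 differed between the libraries, as described above, and its part in these ratios was not tested. In the finer Sfrp2-type cluster Sox9 had -0.32 (-0.44 to -0.21) and Col9a1 stood at 10.8 CPM in mutant and 28.4 CPM in control cells (-1.36, interval -2.27 to -0.61). In the finer Dpep1-type cluster Sox9 had 0.07 (-0.15 to 0.30) and Col9a1 had 6 and 5 UMIs. The 4 erythroid markers summed to 16.9 CPM in mutant and 363 CPM in control cells of cluster 7, and their part in the result was not tested. In clusters 2, 4 and 5 Sox9 had ratios between -0.03 and 0.02, with intervals that include 0.

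Of the 35 further genes of the SOX9 pathway, 13 were measured in the stroma, with a median ratio of -0.20 beside 0.01 over all genes. Of the 13, 3 were at least 1.5-fold lower and 0 higher, where 1.32% of all 8579 genes measured were lower and 1.29% higher. The 3 were Prg4, which encodes the joint lubricant lubricin, at 6.30 CPM in mutant and 25.8 CPM in control stroma (-2.03, interval -2.28 to -1.80), Papss2, which makes the sulfate donor for proteoglycans, at 26.1 and 45.2 CPM (-0.79), and Fmod, the collagen-binding proteoglycan fibromodulin, at 47.0 and 74.6 CPM (-0.67). At a mean of at least 50 CPM, 6 of the 35 were measured, 1 lower and 0 higher. The SOX9 partners Sox5 and Sox6 had ratios of -0.51 and -0.07. Xylt1, which starts the sugar chains of proteoglycans, had -0.52, Pth1r, a hormone receptor of cartilage, -0.20, and Col27a1 -0.15. The other named genes, Trps1, Hapln1 and Matn2, had 0.04, 0.29 and 0.35.

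In Prss35-type cells 15 of the 35 were measured. Their median ratio was -0.13, beside 0.03 over all genes and -0.37 over the 7 measured genes of the set. Of the 15, 3 were at least 1.5-fold lower and 1 higher, where 1.56% of all 8540 genes measured were lower and 2.97% higher. At a mean of at least 50 CPM, 8 of the 35 were measured, 0 lower and 1 higher. Hapln1, which links hyaluronan to proteoglycans, was higher, at 243 CPM in mutant and 138 CPM in control cells, a ratio of 0.82 (0.72 to 0.92). Prg4 (-1.35), the matrilin Matn2 (-1.16) and Ucma (-0.87) were lower. Ucma and Sox6 were chosen for naming after their values were seen. Sox5 had -0.13 and Sox6 0.40, beside -0.92 for Matn4.

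Co-detection was counted after each cell was thinned to 2000 UMIs, which left out 153 mutant and 178 control stromal cells. A cell without a UMI may still express the gene. Sox9 was detected in 53.7% of mutant and 58.8% of control stromal cells, against 1.59% and 0.49% of macrophages. Without thinning, in the same cells, the stromal shares were 87.0% and 85.4%. Matn4 was detected in 9.49% of mutant and 19.6% of control stromal cells after thinning and in 25.9% and 31.8% before it, where median depths were 10747 and 5970 UMIs over all stromal cells.

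Cells with several matrix genes lay mostly in the Prss35-type and cycling clusters. Of the 6 matrix genes Col2a1, Col9a1, Col9a2, Col9a3, Col11a1 and Matn4, at least 3 were detected in 24.0% of mutant and 40.7% of control cells of cluster 8, in 12.3% and 17.3% of cluster 0, and in 2.07% and 4.13% of cluster 2. In clusters 4 and 5 the share was 0 of 467 and 471 mutant and 0 of 646 and 635 control cells, although Sox9 was detected in 48.6% to 54.4% of these cells. All 3 type IX collagen genes were detected together in 5.39% of mutant and 9.35% of control cells of cluster 8.

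Within a cluster, Sox9 and the matrix genes were detected about as often together as their separate shares give. In control cells of cluster 8 the number of cells with Sox9 and a matrix gene was 0.92 to 1.03 times the number expected from the separate shares, and in mutant cells 0.95 to 1.12 times. Pairs of matrix genes were detected together more often than that in 15 of 15 pairs in mutant and 14 of 15 pairs in control cells of cluster 8, with a median of 1.33 and 1.16 times. In cluster 0 it was 12 and 13 of 15 pairs, with a median of 1.21 and 1.25 times. In control cells of cluster 0 the highest value was for Col2a1 with Matn4, at 70 cells against 39.8 expected. The ratio for a pair of genes has a ceiling, which falls as the more often detected gene nears all cells. In cluster 8 after thinning, Sox9 was detected in 70.1% of mutant and 79.9% of control cells. No matrix gene passed 47.1% of mutant and 60.1% of control cells there. Pairs with Sox9 thus had less room to rise. The ratios therefore cannot decide whether Sox9 is linked less closely to the matrix genes than these are to each other. Counts per cell are sparse, so these ratios are a description and no measure of control of 1 gene by another.

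**Figure D4:**
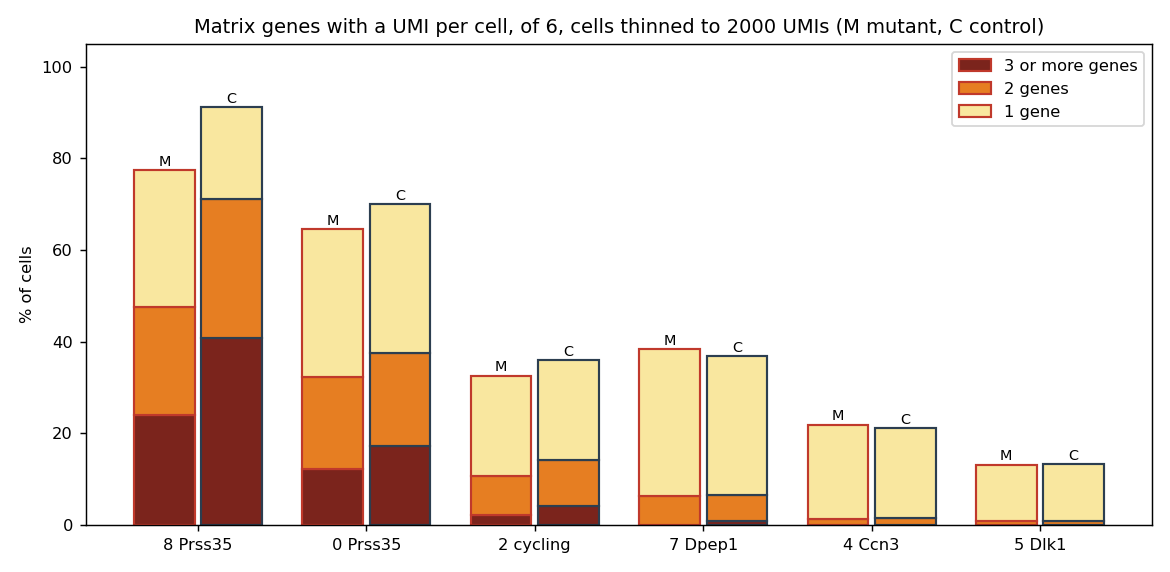
Share of cells with UMIs of 1, 2, or 3 or more of the 6 matrix genes, in 6 stromal clusters of the mutant (M) and control (C) library, with cells thinned to 2000 UMIs. Cells with 3 or more genes make up 24.0% of mutant and 40.7% of control cells of cluster 8 and 0 of the cells of clusters 4 and 5.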

How the data were processed

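The values are raw UMI counts that the authors deposited for each gene and barcode of 2 mouse leaflet libraries. Per the submitters' processing notes, Cell Ranger 5.0.0 and the mm10 build were used. Counting options and annotation release are not given in the sources used here. Barcodes with at least 500 genes, 1000 UMIs and under 20% mitochondrial UMIs were kept, and doublets called by Scrublet (scanpy 1.11.5) removed: 3.14% of mutant and 3.75% of control cells, less than the 5.12% and 8.61% that loading would give, which leaves doublets among the cells. Cells were clustered together on 2000 variable genes, 30 components and 15 neighbours (leidenalg 0.10.2, resolution 0.8). Clusters were named from marker lists, by a scoring rule set after the data were seen.

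Counts were summed per cluster and library and scaled to CPM. Log2 ratios have 0.5 counts added. A gene counts as measured at a mean of at least 10 CPM. Intervals are at 95%, exact Poisson for CPM, exact conditional Poisson for ratios and exact Clopper-Pearson for shares. A count of 0 allows up to 3 counts. The ratio step was tested on simulated data. The genes and lists were chosen with earlier results of these data known. Of the 35 pathway genes, all were counted; named were the 8 with the highest stromal level and the 6 with the largest ratio. Alternatives were 12 changes of filter, doublets, clustering, scaling, weights, sex type, depth and free RNA.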

Additional observations from a re-analysis of the deposited data

Results flagged for a closer look

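Ratios of mutant over control that ran in opposite directions in different stromal clusters, with counting intervals that exclude 0, were looked for over the 7 measured genes, and both cases found are given. For Col9a1 the log2 ratio was 0.25 in the Prss35-type cluster 8 and -1.61 in the Dpep1-type cluster 7, a difference of 1.86. At the finer resolution Col9a1 stood at 10.8 CPM in mutant and 28.4 CPM in control cells of the Sfrp2-type part of cluster 7 and at 3.72 and 4.90 CPM in the Dpep1-type part, which were mixed in different shares in the 2 libraries. Of cluster 8, 153 mutant and 133 control cells lay in the second finer Prss35-type cluster and 56 and 446 in the third. Over the whole extent of these finer clusters Col9a1 had ratios of 0.10 (-0.02 to 0.22) and -1.11 (-1.39 to -0.85). The part of this make-up in the value of 0.25 was not tested. In cluster 8 the ratio of Col9a1 against female-type control cells was -0.05 for male-type and 0.38 for female-type mutant cells. For Col11a1 it was 0.32 in cluster 0 and -1.33 in cluster 8, both Prss35-type, a difference of 1.65. In the 3 finer Prss35-type clusters Col11a1 stood at 32.5 and 29.2, 53.6 and 78.5, and 195 and 183 CPM in mutant and control cells. None was 1.5-fold apart, though the second of them had a ratio of -0.55 with an interval of -0.85 to -0.26. Whether the opposite signs come from the cluster border was not tested. In cluster 0 the ratio of Col11a1 against female-type control cells was -0.44 for male-type and 0.44 for female-type mutant cells. With 1 library per genotype neither difference was tested. The value of Col11a1 in cluster 8 rests on 98 mutant and 389 control UMIs, and male-type mutant cells had 91.5 CPM there, between the 47.0 CPM of female-type mutant cells and the 151 CPM of female-type control cells.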

How the results depend on the processing

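No paired analysis was possible because there is 1 library per genotype, and for the same reason no replicate could be left out. In all stromal cells 5 genes were at least 1.5-fold lower; the count was 3 with the same cluster weights, 3 with female-type cells only and 3 with cells thinned to 2000 UMIs, and 4 with doublets kept or with a class set per cell. The Ccn3-type cluster left the stromal class when doublets were kept. In Prss35-type cells the count of 2 became 3 with centred ratios and with the same cluster weights. The count of higher genes was 0 in both sets under all 12 alternatives. Matn4, Col2a1 and Col9a3 stayed past 1.5-fold in all stromal cells in all 12, with ratios between -1.45 and -0.91, -1.45 and -0.79, and -1.18 and -0.61. Col9a1 ran from -0.63 to -0.07 and Col9a2 from -0.64 to -0.32. In Prss35-type cells Matn4 (-1.05 to -0.80) and Col2a1 (-0.88 to -0.62) stayed past 1.5-fold in all 12, and Col9a1 ran from -0.02 to 0.22. At the finer resolution 3 Prss35-type clusters formed. In the one with 191 mutant and 907 control cells neither Matn4 (94.8 against 112 CPM) nor Col2a1 (17.9 against 14.9 CPM) was 1.5-fold lower, and in the one with 139 and 664 cells Col9a1 stood at 108.0 against 234 CPM. The causes were not tested. Acan, Cnmd and Snorc were too low for a ratio at this depth.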
